A study of Homo sapiens with 6 samples.

Results

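The genes of 7 receptors of the TNF receptor superfamily, FAS, TNFRSF10A, TNFRSF10B, TNFRSF10D, TNFRSF1A, TNFRSF12A and TNFRSF21, and of the adaptor FADD and the protease CASP8 were examined by RNA-seq in HEC-1-A cells, a line of human endometrial adenocarcinoma. The 9 genes were taken by name from tables of 23228 genes. Control cells were given vehicle, as the methods describe, while their labels name only McCoy's medium. Treated cells received SMIP34, a small molecule that inhibits the oncoprotein PELP1, at 20 µM for 24 h in the same serum-containing medium, and each group had 3 libraries. The cells are 1 established line, and the labels do not say whether replicates were separate cultures, so the p-values measure the spread between these libraries, which may be technical. All 9 genes had enough counts to be tested among 13408 genes. Values after ± are SDs over the libraries of a group (n = 3 throughout).

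Death receptors are cell-surface proteins that carry a death domain on the cytoplasmic side. When FAS or a TRAIL receptor binds its ligand, the adaptor FADD joins the receptor through death domains and recruits the proenzyme of caspase-8 through death effector domains, and the activated protease then cleaves downstream substrates such as the BCL2 family protein BID. The TNF receptor TNFRSF1A mainly builds an NF-kB signaling complex on the adaptor TRADD and the kinase RIPK1 and reaches FADD and caspase-8 from a later complex. Decoy receptors bind the TRAIL ligand without a working death domain, and CFLAR, which encodes c-FLIP, competes with caspase-8 for FADD.

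The libraries held between 19562711 and 22014835 counts on genes. Control replicate 1, which was the smallest library, had a count in 16881 genes, against 15965 to 16100 genes in the other 5 libraries. The epithelial markers EPCAM, KRT8, KRT18, KRT19, CDH1 and CLDN4 summed to 3641 to 3767 CPM (counts scaled to library size) in control and 3594 to 3629 CPM in SMIP34-treated cells. The fibroblast markers, of which 2 of 6 were tested and LUM was at 0, summed to 3.63 to 4.47 CPM in control and 4.69 to 5.18 CPM in treated cells. Of the single markers, KRT8 (log2 fold change -0.12) and KRT19 (-0.17) were lower and CLDN4 (0.19) and COL1A1 (0.50, from 2.96 to 4.19 CPM) higher in treated cells at an adjusted p under 0.05 in edgeR, with COL1A1 just past the fold limit of 0.5. The sums were at most 2.23 CPM for 6 leukocyte genes, with CD3E at 0, and 0.876 CPM for 4 endothelial genes, and the part of such cells in the differences was not tested. The mRNA of PELP1, whose protein is the target of the compound, was higher in treated cells, with a log2 fold change of 0.16 (edgeR, adjusted p = 0.000746). It passed in all 20 alternative analyses, with log2 fold changes between 0.13 and 0.20. By Western blotting, the paper reports a lower level of PELP1 protein after SMIP34, a measure unlike that of mRNA.

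The 250 bases before the first annotated base of FAS and of TNFRSF21 are shown because these were the members outside the TRAIL receptor cluster whose mRNA passed the test. They were read from GRCh37, the assembly that the deposited tables call hg19, at chr10:90750038-90750287 on the plus strand for FAS and at chr6:47277681-47277930 on the minus strand for TNFRSF21. Capitals mark matches on either strand to 5 motifs, which were AP-1 (TGANTCA), the cyclic AMP response element CRE (TGACGTCA), the GC box (GGGCGG), the TATA box (TATAAA) and the NF-kB consensus.
FAS: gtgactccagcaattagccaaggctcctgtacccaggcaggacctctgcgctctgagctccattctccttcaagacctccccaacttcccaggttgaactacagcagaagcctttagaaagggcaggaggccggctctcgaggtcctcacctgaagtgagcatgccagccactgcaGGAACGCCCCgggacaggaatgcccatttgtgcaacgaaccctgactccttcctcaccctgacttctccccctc
TNFRSF21: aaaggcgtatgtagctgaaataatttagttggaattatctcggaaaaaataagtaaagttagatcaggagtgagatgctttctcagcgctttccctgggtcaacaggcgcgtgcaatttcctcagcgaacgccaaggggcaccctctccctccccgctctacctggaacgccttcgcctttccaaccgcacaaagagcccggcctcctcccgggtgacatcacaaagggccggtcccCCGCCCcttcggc
The capitals in FAS are 1 NF-kB match that starts 74 bases before the first annotated base, and the capitals in TNFRSF21 are 1 GC box 13 bases before it. Over the same window of 13249 genes tested, 11.5% held an NF-kB match, 62.8% a GC box, 3.73% an AP-1 match, 2.48% a CRE match and 5.46% a TATA box. Among the other members, the GC box was found in TNFRSF10A, TNFRSF12A, FADD and CASP8, the NF-kB match in TNFRSF12A, where it overlaps a GC box, and the TATA box in TNFRSF10D. No AP-1 or CRE match was found in the windows of the 9 genes, and a match or its absence describes only these letters.

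In control cells, the 9 mRNAs covered a wide range of levels per exon length (CPM divided by the kilobases of exon, CPM per kb). TNFRSF12A, which encodes the receptor for TWEAK and has no death domain, stood highest at 203 ± 7.56 CPM per kb, above 97.4% of the genes tested. It was followed by TNFRSF1A, the main receptor of TNF, at 48.4 ± 0.725 and by TNFRSF10B, a signaling receptor for TRAIL, at 44.3 ± 1.73 CPM per kb. The levels of FADD, 32.7 ± 1.40 CPM per kb, and of FAS, 26.6 ± 0.796 CPM per kb, came next, and CASP8 stood at 8.76 ± 0.287 CPM per kb. The lowest levels were those of TNFRSF10D, a TRAIL decoy receptor with a truncated death domain, at 7.36 ± 0.542, of TNFRSF21, a receptor with a death domain also known for its role in axon pruning, at 6.95 ± 0.674, and of TNFRSF10A, the other signaling TRAIL receptor, at 5.96 ± 1.12 CPM per kb. In this order, the control libraries of neighbors did not overlap, except that TNFRSF10D overlapped TNFRSF21 and TNFRSF21 overlapped TNFRSF10A. The size of the lead of TNFRSF12A depends on its short annotated exon length, 1032 bases against 4152 for TNFRSF10B. In CPM, the control means of TNFRSF12A and TNFRSF10B were 209 and 184.

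In SMIP34-treated cells the order was the same except at its second place. There TNFRSF10B, at 54.9 ± 0.417 CPM per kb, stood above TNFRSF1A, at 46.0 ± 0.624 CPM per kb. Within each library, the ratio of TNFRSF10B to TNFRSF1A was 0.971, 0.885 and 0.892 in control and 1.18, 1.20 and 1.20 in treated cells, so that the ratio lay below 1 in each control and above 1 in each treated library. This pair was chosen after its values were seen and was not tested. Where the ratio lies against 1 depends on the annotated exon lengths, 4152 bases for TNFRSF10B and 2226 for TNFRSF1A. In CPM, TNFRSF10B stood above TNFRSF1A in control cells as well, with means of 184 against 108. CASP8, at 9.16 ± 0.429, and TNFRSF10D, at 8.77 ± 0.393 CPM per kb, overlapped in treated cells, whereas their control libraries did not overlap. The 7 receptor mRNAs together came to 342 ± 7.004 CPM per kb in control and 346 ± 3.78 CPM per kb in treated cells. TNFRSF12A made up 59.2 ± 0.992% of that sum in control and 57.3 ± 0.139% in treated cells, and TNFRSF10B 12.9 ± 0.704% and 15.9 ± 0.0731%. These shares also depend on the annotated exon lengths. In CPM, TNFRSF10B stood above TNFRSF12A in treated cells, with means of 228 against 205.

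**Figure D1:**
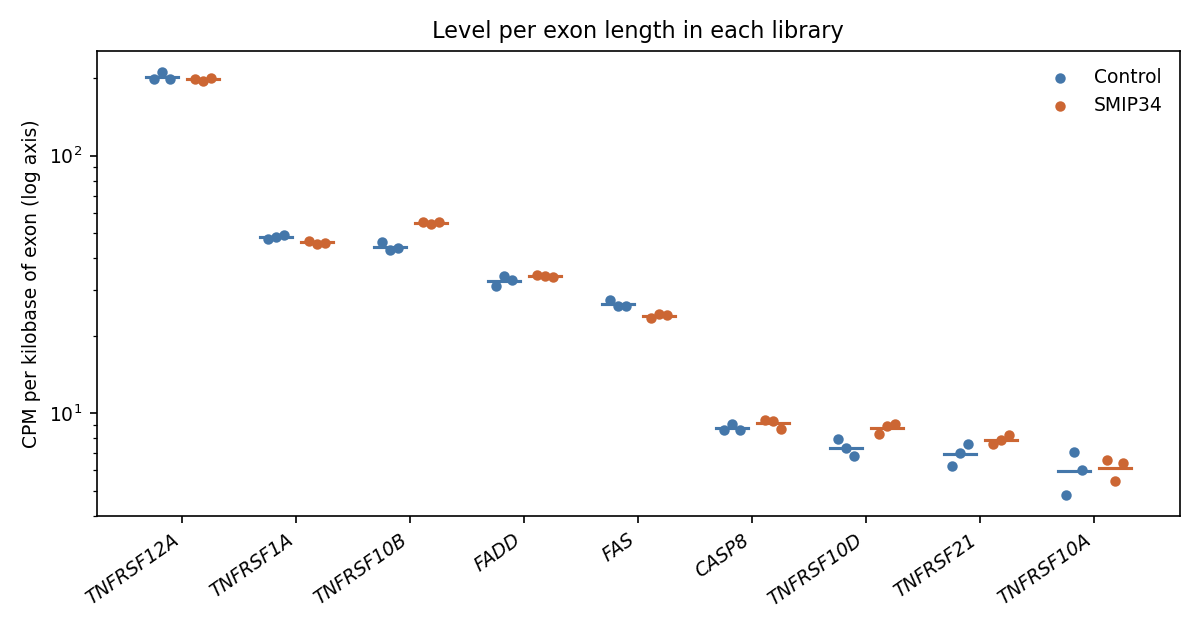
Level of the 9 mRNAs in each library, as CPM per kilobase of exon on a log axis, with 3 control libraries in blue, 3 SMIP34 libraries in orange and group means as lines. TNFRSF12A stands at 203 CPM per kb in control, TNFRSF10A at 5.96, and the treated libraries of TNFRSF10B stand above those of TNFRSF1A, while the control libraries stand below.

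Of the 9 genes, 3 were higher and 1 was lower in SMIP34-treated cells. A gene was called when its p from the quasi-likelihood fit of edgeR, adjusted over all 13408 genes, was under 0.05. Over all genes tested, 34.6% passed in either direction, 17.4% as higher and 17.2% as lower, so the count of 4 among 9 is close to the background. The higher genes were TNFRSF10B, TNFRSF10D and TNFRSF21, and the lower gene was FAS. None of the 9 passed the additional limit of 0.5 on the absolute log2 fold change, which 3.31% of all genes passed together with the adjusted p, 1.44% as higher and 1.87% as lower. The groups did not overlap for 4 of the 9 genes (TNFRSF10B and TNFRSF10D higher, FAS and TNFRSF1A lower), against 44.5% of all genes tested. The median of the 9 log2 fold changes was 0.062, against -0.0022 for the whole set of genes. In RNA from whole cultures, fewer cells that express a gene and less RNA per cell cannot be told apart.

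**Figure D2:**
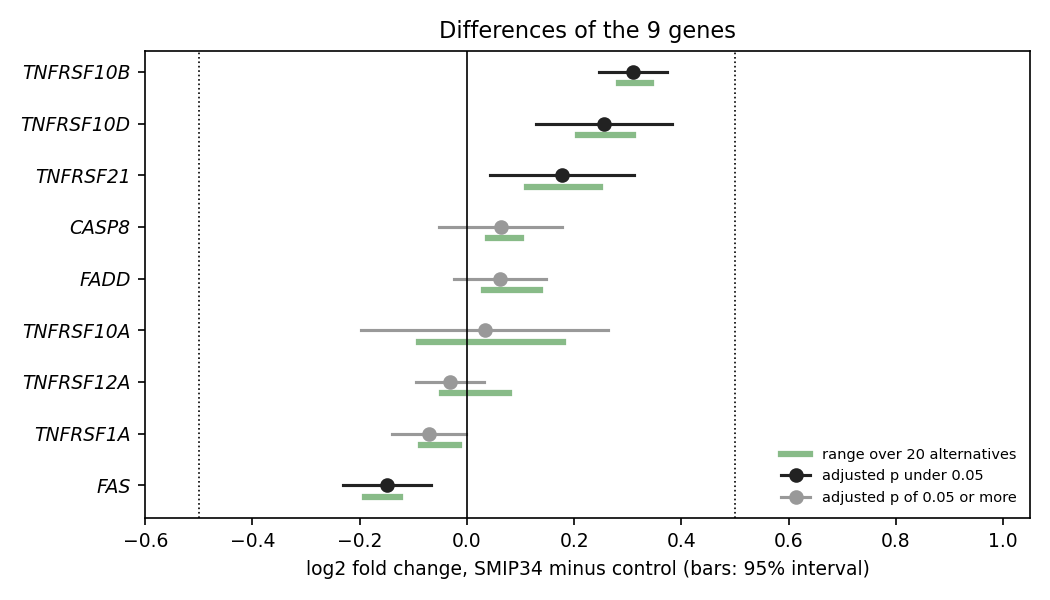
Log2 fold change of each gene, SMIP34 minus control, with its 95% interval from edgeR's fit; dark points had an adjusted p under 0.05, and the green bars give the range over 20 alternative analyses. The intervals of TNFRSF10B, TNFRSF10D and TNFRSF21 lie above 0 and that of FAS below 0, and none of the 9 points reaches the dotted lines at 0.5 on either side.

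The TRAIL receptor genes lie beside each other on chromosome 8 of hg19, all on the minus strand for the 3 members. TNFRSF10B (from 22877648 to 22926700) had the largest difference of the 9. It was at 192, 178 and 182 CPM in control replicates 1, 2 and 3 and at 229, 226 and 229 CPM in SMIP34 replicates 1, 2 and 3. Each treated library stood above each control, as in 22.6% of all genes tested. The mean rose by 24.0%, from 184 ± 7.20 to 228 ± 1.73 CPM. On the log2 scale this was 0.31 with a standard error of 0.031 (edgeR, adjusted p = 1.38e-08). Among all genes tested, this log2 fold change ranked 846 from the highest. Over 20 alternative analyses its log2 fold change lay between 0.28 and 0.34, and the highest adjusted p was 7.55e-07.

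TNFRSF10D (from 22993104 to 23021540), the decoy, was at 28.0, 25.8 and 24.2 CPM in control and at 29.4, 31.6 and 31.9 CPM in treated replicates 1, 2 and 3. The groups did not overlap, and the highest control and the lowest treated library, both replicate 1, lay close together. With means of 26.0 ± 1.91 and 31.0 ± 1.39 CPM, TNFRSF10D rose by 0.26 on the log2 scale, with a standard error of 0.062 (edgeR, adjusted p = 0.00197), and it passed in all 20 alternatives, with values between 0.21 and 0.31.

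TNFRSF10A (from 23048970 to 23082680) had few counts, between 164 and 269 per library. It was at 8.45, 12.4 and 10.5 CPM in control and at 11.5, 9.52 and 11.2 CPM in treated replicates 1, 2 and 3, and all 3 treated libraries lay within the range of the controls. The log2 fold change was 0.034 with a 95% interval from -0.20 to 0.26 (adjusted p = 0.850, edgeR). The log2 fold change of TNFRSF10B lies above this interval and that of TNFRSF10D within it. Without control replicate 1, its log2 fold change was -0.090. The 4th gene of the cluster, TNFRSF10C, a decoy without an intracellular part, had control libraries at 3.06 ± 0.706 CPM and treated libraries at 2.73 ± 0.640 CPM, which overlapped.

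The ratio of the decoy TNFRSF10D to the signaling TRAIL receptors was followed within each library on values per exon length. TNFRSF10D stood at 0.155, 0.146 and 0.137 of the sum of TNFRSF10A and TNFRSF10B in control replicates 1, 2 and 3 and at 0.135, 0.150 and 0.147 of it in SMIP34 replicates 1, 2 and 3. The groups overlapped, with a difference in log2 ratio of -0.025 (two-sided exact permutation p = 0.8, adjusted p = 1 over 4 ratios). Without control replicate 1 it was 0.018. TNFRSF10B exceeded TNFRSF10A by 7.65 ± 1.78 times in control and 8.99 ± 0.876 times in treated cells, with groups that overlapped through control replicate 1 alone (exact permutation p = 0.3, adjusted p = 0.6). The difference in log2 ratio was 0.26, and it lay between 0.10 without control replicate 2 and 0.43 without control replicate 1. With 3 libraries against 3, this test cannot give a p below 0.1.

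TNFSF10 on chromosome 3 (from 172223298 to 172241297) encodes the TRAIL ligand of these receptors. It was at 16.2, 13.8 and 15.6 CPM in control and at 11.8, 12.6 and 10.7 CPM in treated replicates 1, 2 and 3, with each treated library below each control. With means of 15.2 ± 1.27 and 11.7 ± 0.974 CPM, TNFSF10 fell by 0.37 on the log2 scale, with a standard error of 0.088 (edgeR, adjusted p = 0.00173), and it passed in all 20 alternatives. On values per exon length, the ratio of TNFRSF10B to TNFSF10, chosen after the values were seen, was 8.97 ± 0.514 in control and 14.5 ± 1.31 in treated cells, without overlap and without a test.

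FAS on chromosome 10 of hg19, from 90750288 to 90775542 on the plus strand, encodes the receptor of FAS ligand. It was at 73.9, 70.2 and 70.1 CPM in control and at 63.1, 65.4 and 64.5 CPM in SMIP34 replicates 1, 2 and 3. No treated library reached the lowest control, as in 21.9% of all genes tested. The group means were 71.4 ± 2.14 and 64.3 ± 1.19 CPM, a change of -9.85%. On the log2 scale FAS fell by 0.15 with a standard error of 0.040 (edgeR, adjusted p = 0.00460). Of all genes tested, 59.2% had an absolute log2 fold change of this size or smaller. The call held in all 20 alternatives, with log2 fold changes between -0.19 and -0.12. Its ligand FASLG had at most 2 counts in a library and was not tested. The ratio of TNFRSF10B to FAS per exon length, chosen after the values were seen, was 1.67 ± 0.0222 in control and 2.29 ± 0.0566 in treated cells, with no overlap between the groups and no test.

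TNFRSF1A on chromosome 12, from 6437923 to 6451283 on the minus strand, was at 106, 108 and 109 CPM in control and at 104, 101 and 102 CPM in SMIP34 replicates 1, 2 and 3. The treated libraries all lay below the controls, by a small margin. The group means were 108 ± 1.61 and 102 ± 1.39 CPM. Its log2 fold change was -0.071 with a 95% interval from -0.14 to -0.0019, and it passed neither the adjustment over all genes (adjusted p = 0.105, edgeR) nor any of the 20 alternatives. The TNF gene had at most 2 counts in a library.

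TNFRSF12A on chromosome 16, from 3070313 to 3072383 on the plus strand, was at 205, 218 and 205 CPM in control and at 205, 202 and 207 CPM in SMIP34 replicates 1, 2 and 3. The groups overlapped, and the log2 fold change was -0.032 with a 95% interval from -0.095 to 0.031 (adjusted p = 0.460, edgeR). TNFRSF12A is short, with 1032 bases of exon, and for the shortest 10% of genes by exon length the median of this value was -0.10. When the dependence of counts on gene length was taken out by offsets, its log2 fold change was 0.054 (adjusted p = 0.121), and with offsets on length and GC content it was 0.079 (adjusted p = 0.0151), so its direction depended on this correction. The gene of its ligand TWEAK, TNFSF12, was listed at 0 in all 6 libraries.

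TNFRSF21 on chromosome 6, from 47199268 to 47277680 on the minus strand, was at 22.8, 25.4 and 27.7 CPM in control and at 27.5, 28.5 and 29.9 CPM in SMIP34 replicates 1, 2 and 3. The lowest treated library lay just below the highest control, so the groups overlapped. With means of 25.3 ± 2.45 and 28.6 ± 1.20 CPM, its log2 fold change was 0.18 with a standard error of 0.065 (edgeR, adjusted p = 0.0367). The call was the least stable of the 4. Without control replicate 1, 2 or SMIP34 replicate 2 or 3, the adjusted p was 0.223, 0.0796, 0.0744 or 0.146, and the log2 fold change without control replicate 1 was 0.11. The call was also lost in DESeq2 (adjusted p = 0.0935) and with upper quartile scaling (adjusted p = 0.0529).

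FADD on chromosome 11, from 70049269 to 70053508 on the plus strand, was at 57.8, 63.0 and 61.1 CPM in control and at 63.9, 63.2 and 62.9 CPM in SMIP34 replicates 1, 2 and 3. One control, replicate 1, was low, and the other 2 controls lay near the treated libraries. Its log2 fold change was 0.062 with a 95% interval from -0.024 to 0.15 (adjusted p = 0.271, edgeR). The value was 0.031 without control replicate 1 and 0.092 without control replicate 2, the ends of its range when single libraries were left out. It passed with offsets on gene length (log2 fold change 0.12, adjusted p = 0.0246) and on length and GC content (log2 fold change 0.14, adjusted p = 0.00784). CASP8 on chromosome 2, from 202098166 to 202152434 on the plus strand, was at 30.1, 31.9 and 30.2 CPM in control and at 33.1, 32.8 and 30.4 CPM in treated replicates. The groups overlapped, with a log2 fold change of 0.063 and a 95% interval from -0.052 to 0.18 (adjusted p = 0.418, edgeR), and CASP8 passed in none of the 20 alternatives.

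Per exon length, CASP8 stood at 0.268 ± 0.00687 of FADD in control and at 0.268 ± 0.0109 of FADD in treated cells, with overlapping groups (two-sided exact permutation p = 1, adjusted p = 1). The difference in log2 ratio was -0.00087, and 0.018 without control replicate 1. CFLAR, the inhibitor that competes with caspase-8, stood at 0.716, 0.666 and 0.739 of CASP8 in control and at 0.592, 0.619 and 0.665 of CASP8 in SMIP34 replicates 1, 2 and 3. That this ratio lies below 1 depends on the annotated exon lengths, 12191 bases for CFLAR and 3505 for CASP8. In CPM, CFLAR stood above CASP8, with control means of 75.4 against 30.7. Each treated ratio of CFLAR to CASP8 was below each control ratio, but the highest treated (0.665) and the lowest control ratio (0.666) nearly met. The difference in log2 ratio was -0.18, at the smallest p that 3 against 3 libraries allow (exact permutation p = 0.1, adjusted p = 0.4). This ratio was chosen with earlier results of these data known. The CFLAR mRNA itself fell by 0.11 on the log2 scale, with a standard error of 0.039 and means of 75.4 ± 1.88 and 69.7 ± 1.26 CPM (edgeR, adjusted p = 0.0221). It passed in 15 of 20 alternatives, and the call was lost in DESeq2 (adjusted p = 0.0663), with scaling by library size only (0.0594) and without control replicate 3 (0.0821) or SMIP34 replicate 1 (0.101). With offsets on length its log2 fold change was -0.25 (adjusted p = 3.58e-06), and on length and GC content -0.26 (adjusted p = 1.49e-06).

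**Figure D3:**
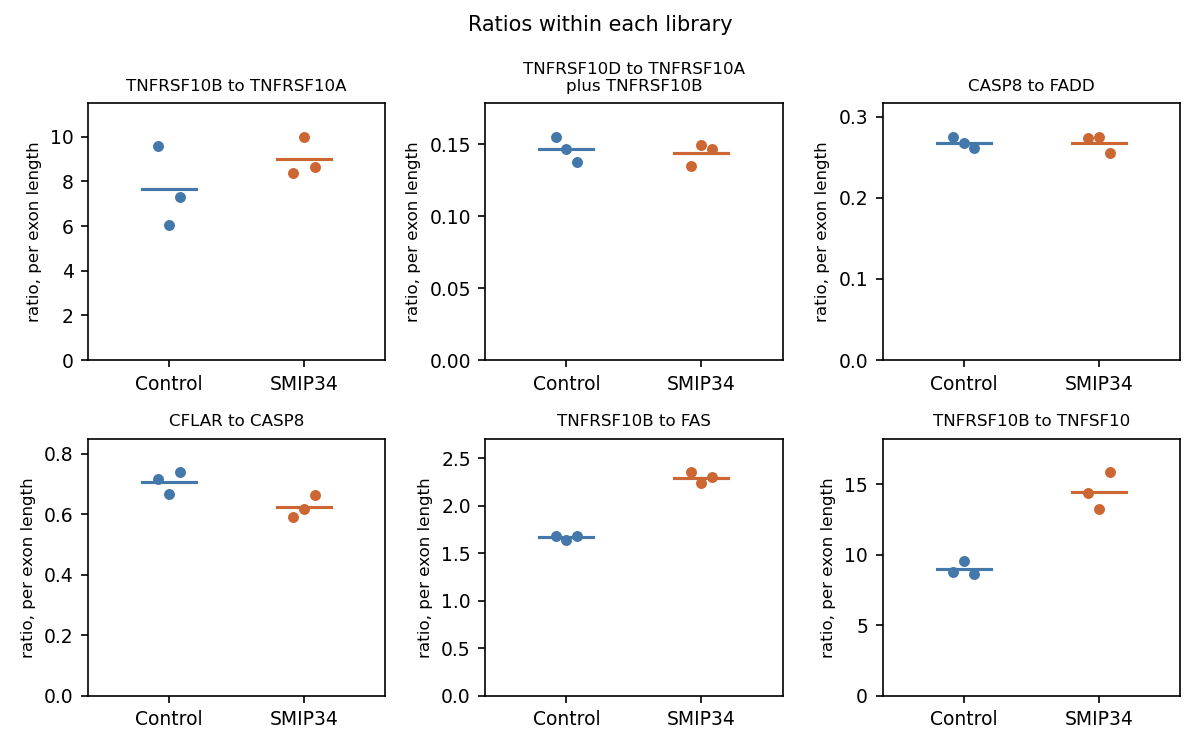
Ratios between mRNA levels per exon length within each library, with group means as lines and every axis starting at 0. The groups overlap for TNFRSF10B to TNFRSF10A, for the decoy TNFRSF10D to its signaling counterparts and for CASP8 to FADD, and they do not overlap for CFLAR to CASP8 (means 0.707 and 0.625), TNFRSF10B to FAS (1.67 and 2.29) and TNFRSF10B to TNFSF10 (8.97 and 14.5). The ratios of TNFRSF10B to FAS and to TNFSF10 were chosen after the values were seen and were not tested. Their separation follows from that of the single genes.

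Among 8 genes of death ligands and related ligands, 2 had enough counts to be tested. TNFSF10 was lower, as given above, and TNFSF15 had a log2 fold change of -0.087 (adjusted p = 0.330, edgeR). The value for TNFSF15 lay between -0.14 without control replicate 2 and -0.022 without SMIP34 replicate 1, and it passed with offsets on length and GC content (-0.17, adjusted p = 0.0421). The genes FASLG, TNF, LTA, TNFSF12 and TNFSF14 had between 0 and 2 counts per library, and LTB between 0 and 42. Of 22 other receptors of the TNF receptor superfamily, 13 were tested, of which 1 was higher, 3 were lower and 9 did not pass. RELT, which lacks a death domain, rose by 0.37 on the log2 scale, with means of 16.9 ± 0.437 and 21.8 ± 0.582 CPM (edgeR, adjusted p = 0.000116). EDAR, the ectodysplasin receptor, which carries a death domain, fell from 60.1 ± 0.829 to 50.7 ± 2.00 CPM (log2 fold change -0.24, adjusted p = 7.90e-05), and LTBR, the lymphotoxin beta receptor, fell from 99.8 ± 1.27 to 84.8 ± 2.02 CPM (log2 fold change -0.24, adjusted p = 9.80e-06). TNFRSF11B, which encodes the soluble decoy osteoprotegerin, had a log2 fold change of -1.03 (adjusted p = 0.0182) from only 11 to 33 counts per library, and without control replicate 1 it was -0.75 (adjusted p = 0.137). Its call was also lost without SMIP34 replicate 2 (adjusted p = 0.0719) and in DESeq2 (adjusted p = 0.0530). NGFR, at 0.448 CPM in control, had the largest log2 fold change above 0 of this list, 0.99, and did not pass (adjusted p = 0.0510). It passed in 7 of 19 alternatives, with values from 0.69 without SMIP34 replicate 3 to 1.36 without control replicate 2, and 0.17 with the normal prior of DESeq2. RELT, EDAR and LTBR are named after their values were seen. TNFRSF25, which like NGFR carries a death domain, had means of 2.10 ± 0.394 and 2.27 ± 0.338 CPM and did not pass (adjusted p = 0.748).

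Of 25 genes that act on the receptor complexes, 22 were tested, and the test called 7 of them higher and 3 lower. Their median log2 fold change was 0.067. The 2 that passed the fold limit encode ubiquitin-related regulators of the TNFRSF1A complex. TNFAIP3, which encodes the ubiquitin-editing enzyme A20, was at 6.59, 7.73 and 7.99 CPM in control and at 21.97, 20.5 and 21.1 CPM in SMIP34 replicates 1, 2 and 3, which on the log2 scale is a rise of 1.51 with a standard error of 0.087 (edgeR, adjusted p = 2.66e-13). BIRC3, which encodes the ubiquitin ligase cIAP-2, was at 46.7, 46.4 and 47.6 CPM in control and at 97.6, 95.6 and 96.0 CPM in treated replicates, a rise of 1.04 on the same scale with a standard error of 0.039 (edgeR, adjusted p = 3.51e-17). These changes were larger than that of any of the 9 members. The other genes that were higher were TRAF2, BIRC2, CYLD, DEDD2 and TNFAIP8, with log2 fold changes from 0.13 to 0.38, and those lower were CFLAR, FAIM and ADAM10. FAIM, an inhibitor of FAS-induced death, had the largest decrease, with a log2 fold change of -0.32 (adjusted p = 0.00176). TRADD, RIPK1 and MLKL did not pass, and RIPK3 was listed at 0 in all 6 libraries.

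Downstream of caspase-8, 15 of 16 genes were tested, of which 6 were higher and 1 lower, with a median log2 fold change of 0.039 and none past the fold limit. BID, which links caspase-8 to mitochondria, had a log2 fold change of -0.076 (adjusted p = 0.205, edgeR). APAF1 and CYCS, which form the apoptosome, rose with log2 fold changes of 0.19 (adjusted p = 0.00296) and 0.12 (adjusted p = 0.000889), and neither passed with offsets on length and GC content (adjusted p = 0.0824 and 0.0666). The largest increase was that of DFFB, the nuclease of the DNA fragmentation factor (log2 fold change 0.27, adjusted p = 0.0473), a call that held in 11 of 20 alternatives and was lost without control replicate 2 (adjusted p = 0.143) or 3 (0.0928) or SMIP34 replicate 1 (0.0895) or 3 (0.242), and the only decrease that passed was that of GSDMD, the pore-forming gasdermin D (log2 fold change -0.18, adjusted p = 0.00188). The shares that passed were 44.4% of the 9 members, 30.8% of the other receptors, 45.5% of the complex regulators and 46.7% of the downstream genes, against 34.6% of all genes tested.

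**Figure D4:**
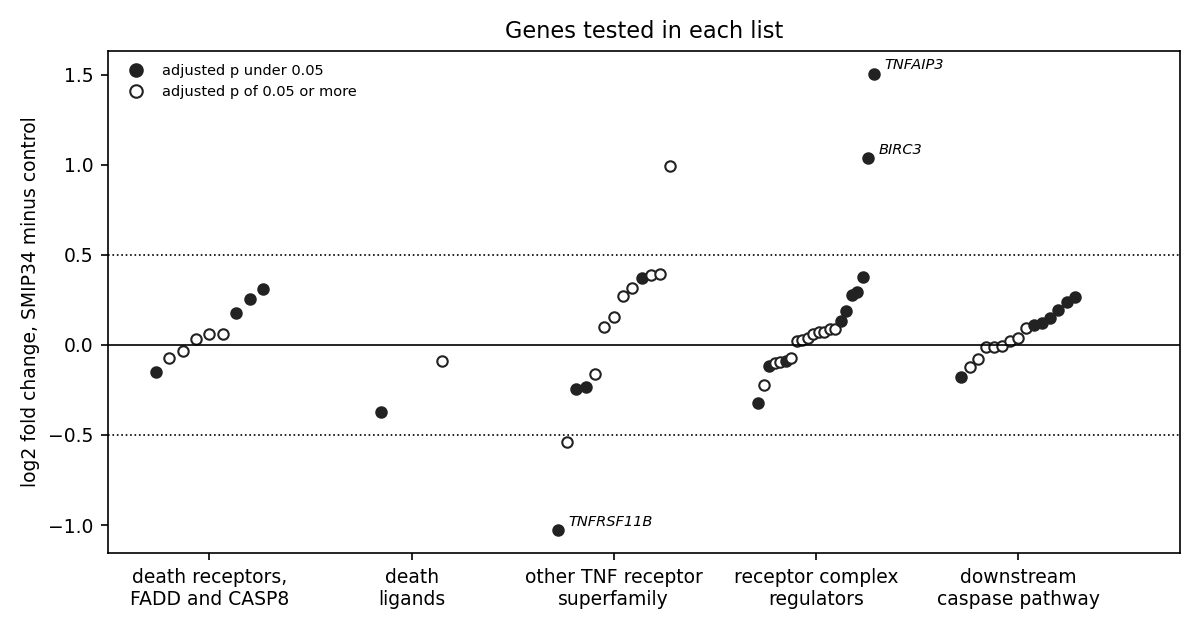
Log2 fold change, SMIP34 minus control, of each gene tested in the 5 lists, ordered within a list, with filled points for an adjusted p under 0.05 and dotted lines at the fold limit of 0.5. Of the filled points, TNFAIP3 (1.51), BIRC3 (1.04) and TNFRSF11B (-1.03) lie outside these lines, and the 9 members lie between -0.15 and 0.31.

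The genes whose pattern over the 6 libraries was nearest to that of TNFRSF10B were SECISBP2L, ITPR2 and RSF1. Their log2 CPM, centered on each gene's own mean, differed from those of TNFRSF10B by a root mean square of 0.017, 0.022 and 0.022, the smallest among the 12604 genes compared. Their log2 fold changes were 0.31, 0.33 and 0.27. The 6 libraries are mainly split by treatment, so this likeness describes chiefly the size of the difference between the groups.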

How the data were processed

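The 6 libraries, 3 control and 3 treated with SMIP34, were grouped by their labels. The deposited values are estimated counts, which the authors made with featureCounts 1.5.0-p1. Per the file headers, exon reads were assigned to UCSC genes on hg19 with the strand taken into account, and a read with several alignments or genes added a fraction to each. The submitters' processing notes name HISAT2, and the methods of the paper name tophat2, HTSeq and NCBI RefSeq genes. Fractional counts occurred in 1 library each for TNFRSF10B and TNFRSF10D, in 3 for TNFRSF12A and in none for the other 6 members.

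Counts were rounded, filtered with filterByExpr, scaled by TMM factors (0.988 to 1.01) and compared in edgeR 4.0.16 (quasi-likelihood, R 4.3.3). The p-values of 13408 genes were adjusted by the Benjamini-Hochberg method. The thresholds were 0.05 for the adjusted p and 0.5 for the size of the log2 fold change. Ratios within libraries were compared by exact permutation. Members, lists and ratios were chosen with earlier results of these data known, and genes named outside the lists' extremes were chosen after their values were seen. Named genes were the 9 members, the extremes of each list and its genes past both thresholds, PELP1, and the 3 genes nearest to the member with the largest change. Alternatives were DESeq2 1.42.0, limma 3.58.1 voom, other scalings, filters and offsets, the replicate number as a block, and leaving out each library. The procedure was also run on simulated data. Of 100 genes with a true absolute log2 fold change of 1, 99 were recovered, and of 100 genes with 0.5, 87 were recovered. Over both sizes together, 15 of 201 calls were false. Changes as small as those of the 9 members were not simulated. Some genes of the downstream list are counted but not reported singly here.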

Additional observations from a re-analysis of the deposited data

How the results depend on the processing

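Over 20 alternatives, TNFRSF10B, TNFRSF10D and FAS kept their direction and their adjusted p under 0.05, and TNFRSF1A, TNFRSF10A and CASP8 passed in none. TNFRSF21 passed in 13, FADD in 2 and TNFRSF12A in 1. The number of members higher at an adjusted p under 0.05 was 3 in the main fit. It was 2 in DESeq2 with or without the prior, with upper quartile scaling, and without control replicate 1 or 2 or SMIP34 replicate 2 or 3. It was 4 with offsets on length and 5 with offsets on length and GC content. The latter, like offsets on GC content alone, were chosen after seeing the data. The count of differentially expressed genes over all genes was 444, 117 with the normal prior of DESeq2 (69 higher and 48 lower), and 4645 without the fold limit. It was 453 with the replicate block, which changed no call among the 9 members. Libraries with the same number did not deviate together between the groups (correlations -0.028, 0.033 and -0.011), and the numbers were therefore not used to pair libraries. Directions of differences that did not pass were reversed for TNFRSF12A with length offsets (0.054), with GC offsets (0.019), without control replicate 2 (0.0010) and, there past the threshold, with length and GC offsets (0.079), and for TNFRSF10A without control replicate 1 (-0.090) or SMIP34 replicate 1 (-0.020). When single libraries were left out, the log2 fold change of TNFRSF10A lay between -0.090 and 0.18 and that of TNFRSF12A between -0.046 and 0.0010, the difference in log2 ratio of TNFRSF10D to TNFRSF10A plus TNFRSF10B lay between -0.069 and 0.021, and that of CASP8 to FADD between -0.019 and 0.033. The fold limit of 0.5 was reached by none of the 9 members in any alternative. The cause of these shifts was not tested. Counts of 164 to 269 per library limit what can be said of TNFRSF10A.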

Other observations

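DDIT3 on chromosome 12, which encodes CHOP, a transcription factor known to act on the TNFRSF10B promoter under endoplasmic reticulum stress, was chosen after its values were seen. It was at 42.2, 39.3 and 37.7 CPM in control and at 32.9, 32.2 and 36.9 CPM in SMIP34 replicates 1, 2 and 3, with each treated library below each control. Its log2 fold change was -0.22 (standard error 0.057, adjusted p = 0.00352 in edgeR's quasi-likelihood test), against 0.31 for TNFRSF10B. DDIT3 is short, with 1178 bases of exon, and for the shortest 10% of genes the median log2 fold change was -0.10. With offsets on length its value was -0.145 (edgeR, adjusted p = 0.0402), and on length and GC content -0.149 (adjusted p = 0.0339). With the same offsets, TNFRSF10B had 0.28 and 0.29. Over 20 alternatives the log2 fold change of DDIT3 lay between -0.28 and -0.15, and it passed in all 20. Its part in the level of TNFRSF10B was not tested.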
